A study of Mus musculus with 15 samples.

Results

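The wild-type embryonic mouse pancreas at 14.5 days post coitum (dpc) was described from the 3 libraries whose titles read 14.5 wt, out of 15 libraries in the series, and no other sample entered the levels given here. These libraries were made from fresh, uncultured C57/Bl6J organs of wildtype genotype, and by the study's methods each was a pool of up to 3 embryos. The remaining 12 libraries hold S1pr2 null pancreata of the same stage and explants grown for 2 days with standard medium, with the S1pr2 antagonist JTE013, or with JTE013 and connective tissue growth factor (CTGF), and they serve below only to compare the spread within groups. The whole organ was lysed, so every level is an average over epithelium, mesenchyme, vessels, nerves and blood. In such bulk samples, fewer cells of a type and less RNA per cell cannot be told apart. The libraries are called wt 1, wt 2 and wt 3, after their titles.

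At this stage the pancreas is in the secondary transition. Multipotent tip progenitors that carry Ptf1a become acinar cells, which make digestive enzymes, while bipotent trunk cells that carry Sox9 and Nkx6-1 give rise to duct cells and, through a pulse of Neurog3, to the hormone cells of the islets. The epithelium branches into a mesenchyme that supplies growth factors and extracellular matrix, and the first large wave of beta cells appears in this window.

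Among the lineage lists the acinar enzymes spread most between the 3 libraries, so the regions just upstream of its most abundant genes are shown before the values. Each line is the 250 bases that precede the RefSeq transcription start (GRCm38.p6, the build of the count table), 5′ to 3′ on the strand of the gene. Ctrb1, chymotrypsinogen B, lies on the minus strand and its window is chr8:111691011-111691260. Pnliprp1, a pancreatic lipase-related protein, lies on the plus strand with the window chr19:58728637-58728886. Cpa1, carboxypeptidase A1, a marker of tip progenitors and acinar cells, lies on the plus strand with the window chr6:30638968-30639217. Capitals mark matches to the E-box CANNTG, the binding motif of basic helix-loop-helix factors such as Ptf1a, and to the TC-box TTTCCC, which the Ptf1a complex reads together with an E-box.
Ctrb1: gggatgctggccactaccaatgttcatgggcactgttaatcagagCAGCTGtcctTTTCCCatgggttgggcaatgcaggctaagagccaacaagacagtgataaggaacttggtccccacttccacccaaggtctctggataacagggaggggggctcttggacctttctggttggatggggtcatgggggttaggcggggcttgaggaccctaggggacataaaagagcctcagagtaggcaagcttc
Pnliprp1: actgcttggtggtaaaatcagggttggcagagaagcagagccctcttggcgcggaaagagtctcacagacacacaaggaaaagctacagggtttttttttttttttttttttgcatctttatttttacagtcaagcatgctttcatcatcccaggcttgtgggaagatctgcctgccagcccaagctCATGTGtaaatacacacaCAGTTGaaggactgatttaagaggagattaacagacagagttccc
Cpa1: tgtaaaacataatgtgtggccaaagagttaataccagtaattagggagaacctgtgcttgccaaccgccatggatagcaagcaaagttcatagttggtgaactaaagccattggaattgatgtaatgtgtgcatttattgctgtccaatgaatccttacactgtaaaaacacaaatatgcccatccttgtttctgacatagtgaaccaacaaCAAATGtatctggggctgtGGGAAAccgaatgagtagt

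Both strands were searched, and the E-box and TC-box matches did not overlap in these windows. The Ctrb1 window held 1 E-box, cagctg, whose first base stood 205 bases before the start, and 1 TC-box that began 10 bases further on, 195 bases before the start. The Pnliprp1 window held 2 E-boxes, 63 and 45 bases before the start, and no TC-box. The Cpa1 window held 1 E-box, 38 bases before the start, and 1 TC-box on the opposite strand, 19 bases before it. The TATA box, searched as TATAAA, was found in none of these 3 windows. Of all 32851 RefSeq windows of this length, 66.2% held an E-box, 21.9% a TC-box and 12.4% a TATA box. Of the 24 acinar enzymes with a window, 20 held an E-box, 9 a TC-box and 11 a TATA box. An enzyme was counted if any of its windows held the motif, whereas the percentages are of single windows, so these measures are not alike. These matches describe letters only, and binding was not measured.

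Depth was even, with 12981401 reads assigned to genes in wt 1, 12337316 in wt 2 and 12513494 in wt 3. A gene with no read could be present at up to 0.243 CPM (counts per 1000000 reads assigned to genes), which is what 3 reads are worth in the shallowest library. Such floors cover counting error only. Of 25292 genes in the table, 14681 reached 1 CPM in all 3 libraries, among them 13487 of 18019 protein-coding genes, and 3005 had no read in any of them. No pair of libraries agreed within sampling noise. The chi-square statistic per gene was 7.19 between wt 1 and wt 2, 2.89 between wt 1 and wt 3, and 3.28 between wt 2 and wt 3, where counting error alone gives about 1. Thus wt 1 and wt 2 were the most distant pair and wt 3 stood between them. Nothing in the labels states a sequencing or extraction batch.

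The defining markers of the labelled organ were present. Measured per gene length, as CPM per kilobase of transcript (RPKM, mean ± SD, n = 3 throughout), the epithelial adhesion genes Epcam and Cdh1 stood at 234 ± 6.18 and 153 ± 9.43, and the progenitor factors Pdx1, Sox9 and Ptf1a at 28.4 ± 1.77, 50.7 ± 3.80 and 38.3 ± 12.7. For scale, the median gene that reached 1 CPM had 8.72 RPKM. Of the neighbouring gut epithelium little RNA was found. Cdx2, the master factor of the intestine, was at 0.0821 ± 0.0221 RPKM and Sox2, a stomach factor, at 0.377 ± 0.237. The 14 genes of the intestine and stomach list summed to 28.4, 30.2 and 31.1 CPM.

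The single most abundant transcript was H19, an imprinted non-coding RNA of the fetal growth locus on chromosome 7 (chr7:142575529-142578143), with 9831, 10962 and 10345 CPM in wt 1, wt 2 and wt 3. The neighbouring growth factor gene Igf2 came next by CPM, with 5209, 4919 and 5124. Wt 2 was the highest library for H19 and the lowest for Igf2. After them by CPM followed the chaperone Hsp90ab1 (4580 ± 58.9 CPM), the elongation factor Eef1a1 (4333 ± 62.6 CPM), the fibrillar collagen Col3a1 (4313 ± 80.1 CPM) and Ctrb1 (4115 ± 1452 CPM). The first 15 were completed by Col1a1, Eef2, Pnliprp1, Actb, Gnas, Dlk1, mt-Cytb, Col1a2 and mt-Co1. They thus combined imprinted growth genes, collagens, acinar enzymes, housekeeping genes and mitochondrial transcripts. About 37.6% of the 50-base words of Eef1a1 and 51.1% of those of mt-Co1 also occur at another locus, so reads of these 2 genes may be lost, and 22.0% of the exon length of Gnas overlaps other genes.

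No gene dominated the RNA pool. The 10 most abundant genes together held between 4.34% and 4.84% of the reads of a library, and 1478 genes were needed to cover 50% of the reads. Only 53 genes exceeded 1000 CPM on average. Among 14 neighbouring pairs in the order of the first 15 genes by CPM, 3 had ranges that did not overlap, namely H19 against Igf2, Igf2 against Hsp90ab1, and Hsp90ab1 against Eef1a1. The lower places were not separable from their neighbours.

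Per gene length, acinar genes moved to the top of the protein-coding order. Ctrb1 led it with 4639 ± 1637 RPKM, and its lowest library (3058) still exceeded the highest library of the next gene, mt-Cytb (2460). Pnliprp1 followed at 1843 ± 548, and Cpa1 and the lipase cofactor Clps were also among the first 15, at 1246 ± 285 and 1115 ± 241 RPKM. The remaining places went to Eef1a1, Hsp90ab1, Actb, the mitochondrial genes mt-Co1 and mt-Nd1, and the ribosomal protein genes Rps15, Rplp1, Rpl8, Rpl4 and Rpl32. Without the restriction to protein-coding genes, H19 stood at 4376 ± 239 RPKM, and 2 very short annotated genes ranked above Ctrb1. These were an unnamed gene of 82 bases (ENSMUSG00000093077) and Gm23935 of 57 bases, the latter sharing all of its words with other loci. Levels of features this short are uncertain.

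A list of 27 imprinted genes, written after the most abundant genes had been seen, summed to 33146, 33000 and 33149 CPM, or 3.31% of the reads. H19 made up 31.4% of that sum. Per length, H19 and Igf2 (888 ± 26.1 RPKM) were followed by the cell cycle inhibitor Cdkn1c (631 ± 17.5), the non-canonical Notch ligand Dlk1 (487 ± 11.3) and Mest (425 ± 24.0). None of the 22 members with 100 or more reads on average had a highest library over 1.5-fold above its lowest, as against 1.07% of all genes of that depth.

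The lineage lists were next summed per library, in CPM. Of the lists written for a cell type or programme, which leave out the imprinted list, the matrix genes of the mesenchyme had the largest sum. Their 31 members held 19287, 19271 and 19245 CPM, which is 1.93% of all reads, a coefficient of variation (CV) of 0.108%. With TMM in place of plain totals the CV was 0.776% and wt 2 was the highest library. Acinar enzymes held 1.22%, cell cycle genes 0.745%, general epithelial genes 0.431%, granins and secretory genes 0.274%, duct and trunk genes 0.259%, and hormones 0.172%. Endothelial genes (0.135%), smooth muscle and pericyte genes (0.107%), neural genes (0.0567%), leukocyte genes (0.0398%) and mesothelial genes (0.0334%) were smaller. Hand2, which is also in the list of mesenchymal factors, made up 24.0% of the neural sum. A sum depends on which and how many genes a list holds, so it ranks lists of genes, not numbers of cells.

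**Figure D1:**
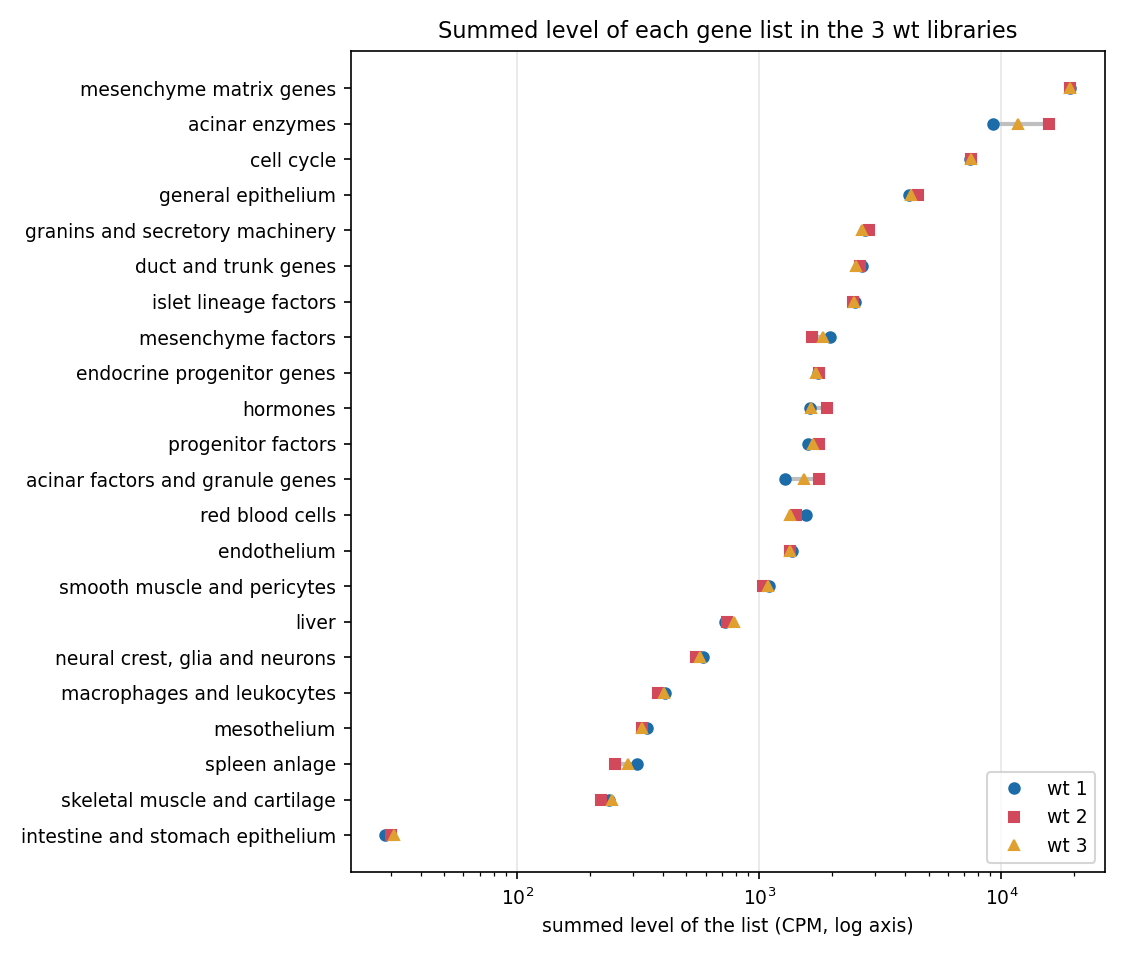
Summed CPM of each gene list (log axis) in wt 1 (circles), wt 2 (squares) and wt 3 (triangles), with a grey bar from the lowest to the highest library. Of the lists drawn, which leave out the imprinted and sex-linked lists, the acinar enzyme list has the widest bar, from 9257 CPM in wt 1 to 15746 CPM in wt 2, whereas the mesenchyme matrix sums, from 19245 to 19287 CPM, lie on top of each other.

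In the plot of list sums, most lists varied little while the acinar lists spread. The endocrine progenitor list had 1751, 1766 and 1716 CPM, the endothelial list 1359, 1340 and 1342 CPM and the cell cycle list 7402, 7488 and 7462 CPM. The acinar enzymes had 9257, 15746 and 11694 CPM, so that wt 2 exceeded wt 1 by 1.70-fold and wt 3 lay between them. Between wt 1 and wt 3 alone the enzyme sum differed by 1.26-fold.

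How much any gene varied among the 3 libraries sets the scale for this spread. Of 11447 genes with 100 or more reads on average, 122 (1.07%) had a highest library more than 1.5-fold above the lowest, and 19 exceeded 2-fold. Most of these ranges lay between wt 1 and wt 2. Without wt 1, 29 genes ranged over 1.5-fold, without wt 2, 24 genes did, and without wt 3, 110 genes did. The median CV was 5.18%, beside a median of 4.13% expected from counting error alone. A CV taken from 3 libraries tends to fall short of the expected one, so these measures are not fully alike. The biological coefficient of variation, which is the spread left after counting error as edgeR estimates it in common over genes, was 5.94%. In the same computation within the other groups, it was 3.89% for S1pr2 null, 9.09% for control explants, 9.94% for JTE explants and 6.92% for JTE + CTGF explants. The corresponding counts of genes over 1.5-fold were 67, 385, 532 and 156. Differences in spread between groups were not tested. The 3 replicates are separate pools, and this spread covers differences between pools only.

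**Figure D2:**
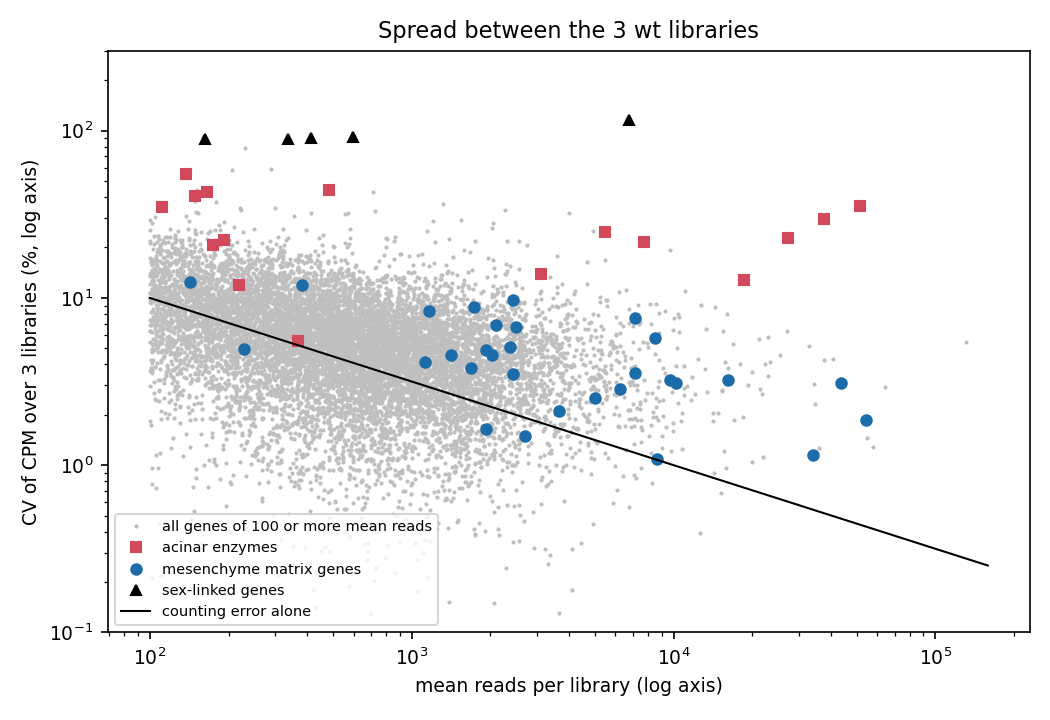
CV of CPM over the 3 wt libraries (percent, log axis) against mean reads per library (log axis) for each gene with 100 or more reads on average, with the line of counting error alone. Acinar enzymes (squares) and sex-linked genes (triangles) lie above most other genes of their depth, and mesenchyme matrix genes (circles) lie within the cloud.

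Acinar enzymes stood out in the plot of spread. Of 29 listed enzymes, 20 reached 1 CPM in all 3 libraries and 16 had 100 or more reads, and 10 of these 16 ranged more than 1.5-fold, against 1.07% of all genes. Of the same 16, 15 were highest in wt 2 and 13 were lowest in wt 1. Over all genes of that depth, 4698 were highest in wt 1, 3666 in wt 2 and 3083 in wt 3. Ctrb1 (chr8:111686510-111691010) had 2712, 5611 and 4021 CPM in wt 1, wt 2 and wt 3, a 2.07-fold range with wt 2 highest. Pnliprp1 (chr19:58728887-58744169) had 2109, 3884 and 2958 CPM in the same order of libraries. Cpa1 (chr6:30639218-30645363) had 1928, 2756 and 1859 CPM, so that only wt 2 stood apart and its 1.48-fold range stayed under the limit.

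Enzymes differed in how far they ranged. The lipase cofactor Clps had 488, 752 and 598 CPM and the carboxyl ester lipase Cel had 325, 542 and 438 CPM. By contrast, the elastase Cela1 ranged 1.29-fold. The trypsinogen Prss2, at 30.7, 27.5 and 29.4 CPM, was the only one of the 16 with its highest value in wt 1. The largest ranges belonged to scarcer enzymes, with 6.70, 17.8 and 8.39 CPM for the trypsinogen Try10, 20.6, 54.1 and 41.0 CPM for Amy2b, 8.78, 19.6 and 11.3 CPM for the elastase Cela3b, and 7.09, 16.7 and 11.8 CPM for the carboxypeptidase Cpb1. Try10 and Amy2b share over 40% of their words with related genes, and their counts are uncertain. The Amy2b locus is annotated as an unprocessed pseudogene, although it is counted among the listed enzymes here. Leaving out the enzymes that share 20% or more of their words, the sums were 9210, 15637 and 11622 CPM.

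Several enzymes that dominate the adult gland were barely detected. The triglyceride lipase Pnlip had 0.410 ± 0.158 RPKM, the chymotrypsin-like Ctrl 0.833 ± 0.101 and the amylase Amy2a5 0.107 ± 0.0228, while Reg2, a secreted lectin, had no read in any library. Amy2a5 shares 53.5% of its words with other amylase genes, so its reads may be lost.

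**Figure D3:**
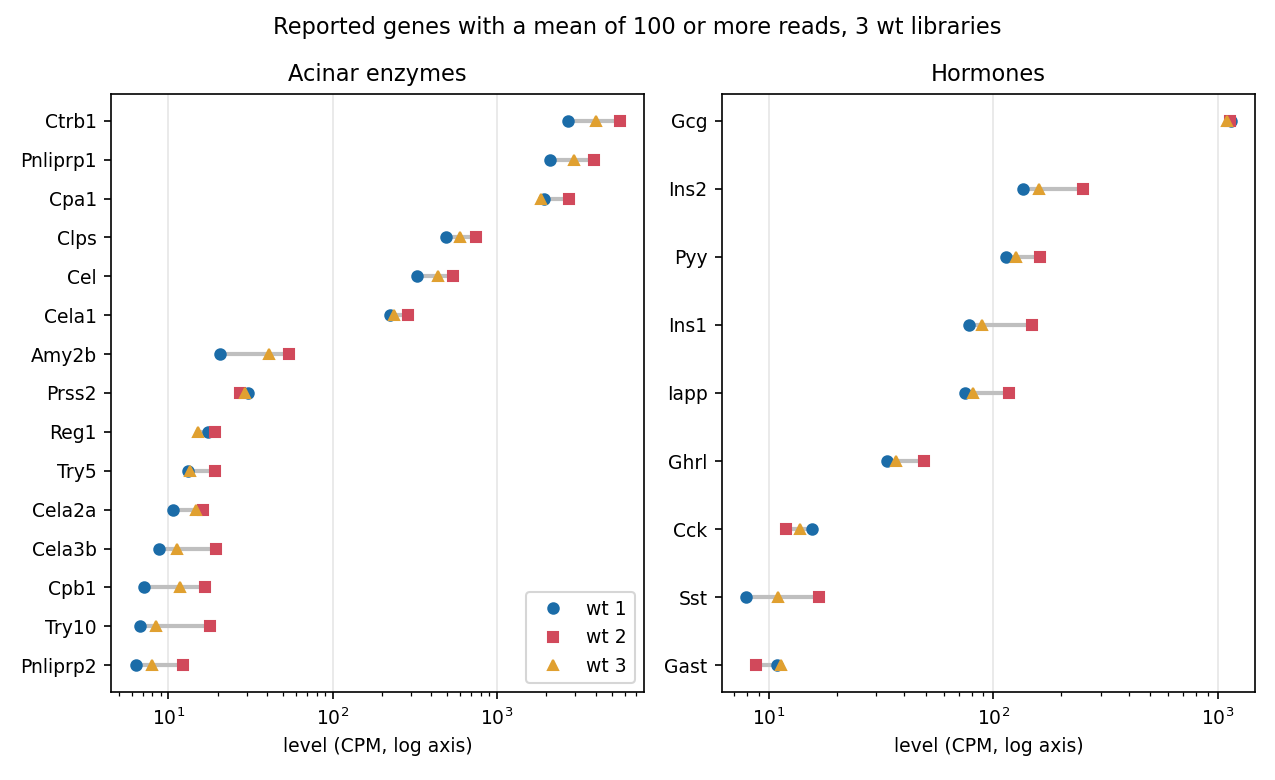
CPM (log axis) of 15 acinar enzymes and 9 hormones with 100 or more reads on average in wt 1 (circles), wt 2 (squares) and wt 3 (triangles), with a grey bar from the lowest to the highest library. The squares of wt 2 lie at the right end for 14 of the 15 enzymes drawn and 6 of 9 hormones, whereas the 3 symbols of Gcg coincide near 1119 CPM. Over all genes of that depth, 32.03% were highest in wt 2.

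The factors that drive acinar genes moved the same way. Ptf1a, the tip progenitor factor that switches on acinar enzymes, had 39.7, 77.9 and 55.5 CPM. Its partner Rbpjl had 287, 480 and 405 CPM. Bhlha15 (also called Mist1), which organises the secretory apparatus of acinar cells, had 87.1, 159 and 123 CPM. For these 3 factors wt 2 was highest and wt 1 lowest, with ranges of 1.96-fold, 1.67-fold and 1.83-fold. Of the 11 acinar factors and granule genes with 100 or more reads, 4 ranged more than 1.5-fold, against 1.07% of all genes. They were these 3 and Erp27, a chaperone of the secretory pathway. Over all genes of that depth, 32.03% were highest in wt 2 and 32.3% lowest in wt 1, whereas all 11 were both. Among them, the secretory stress factor Xbp1 (262, 312 and 287 CPM) and the trypsin inhibitor Spink1 (248 ± 15.4 RPKM) ranged less. About 40.4% of the exon length of Ptf1a overlaps its antisense gene Ptf1aos, and since the strand setting of the counting was not stated, the 2 cannot be told apart.

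The hormones fell into genes that were level and genes that were not. Glucagon, Gcg (chr2:62474530-62483650), was by far the most abundant hormone, with 1136, 1126 and 1096 CPM and 749 ± 13.9 RPKM, and it made up 65.0% of the summed hormone CPM. Both insulin genes were lower and uneven. Ins2 (chr7:142678656-142699510) had 135, 250 and 159 CPM and Ins1 (chr19:52264323-52265456) had 77.7, 149 and 88.9 CPM, wt 2 being highest in each case. Within each library their proportion held, since Ins2 exceeded Ins1 per length by 2.18-fold, 2.10-fold and 2.24-fold. The ratio of Gcg to Ins2 per length therefore varied, from 4.57 in wt 1 to 2.44 in wt 2 and 3.74 in wt 3.

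Iapp and Sst had the same order of libraries as insulin. Iapp, islet amyloid polypeptide, which beta cells release with insulin, had 74.8, 117 and 81.4 CPM, and Sst, the somatostatin of delta cells, 7.93, 16.8 and 11.03 CPM. With Ins1 and Ins2 these were the 4 of 9 hormones with 100 or more reads that ranged more than 1.5-fold, against 1.07% of all genes. Pyy (180, 256 and 199 RPKM) and the epsilon cell hormone Ghrl (63.7, 93.2 and 69.9 RPKM) were also highest in wt 2 but ranged less. Per length the order was Gcg, Ins2, Pyy, Ins1, Iapp, Ghrl, then Gast (22.4 ± 3.00 RPKM), Cck (20.02 ± 2.61) and Sst (19.9 ± 7.49), with Ppy at 9.31 ± 1.19. Ins2 and Pyy were not separable in that order, nor were Ins1, Iapp and Ghrl, nor Gast, Cck and Sst. Ucn3, a mark of mature beta cells, stood at 0.232 ± 0.0611 RPKM.

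Genes of the precursors of these cells came next. Neurog3, the transient switch of endocrine progenitors, had 199, 214 and 196 CPM. At 132 ± 6.10 RPKM it was the fourth highest of 629 transcription factors taken by family name, although 17.7% of its exon length overlaps Fam241b. It exceeded Pdx1 by 4.66 ± 0.178-fold per length. None of the 23 endocrine progenitor genes of 100 or more reads ranged over 1.5-fold, and the same held for 17 islet lineage factors and 25 granin and secretory genes, 1 of the latter passing with TMM or DESeq2 factors. With 1.07% of all genes over that range, counts of 0 in lists this short are near the background. Mafa, a factor of mature beta cells, was scarce, with 3.39, 6.73 and 3.52 CPM from 44, 83 and 44 reads, too few for the range to be counted. The secretory granule genes Chgb (201 ± 6.41 RPKM) and Chga (128 ± 11.03 RPKM) were well detected, below the thyroid hormone carrier Ttr, which alpha and beta cells also make (339 ± 11.8 RPKM).

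Progenitor factors formed a ladder per length. Nkx6-1 of the trunk led it (64.6 ± 2.00 RPKM) and was separate from Sox9 (50.7 ± 3.80). Ptf1a, Nr5a2, Hes1, Foxa2 and Gata6 followed between 38.3 and 32.4 RPKM without separable places, then Pdx1 and Gata4. Onecut2 and Foxa1 were at 0.0888 ± 0.0316 and 0.0826 ± 0.0275 RPKM, whereas their relatives Onecut1 and Foxa2 stood at 11.3 ± 1.70 and 32.4 ± 3.64. Of the 20 progenitor factors with 100 or more reads, 1, Ptf1a, ranged more than 1.5-fold, against 1.07% of all genes. Of the same 20, 13 were highest in wt 2 and 13 lowest in wt 1, against 32.03% and 32.3% of all genes.

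The duct and trunk list was led by Spp1, osteopontin, at 533 ± 58.4 RPKM, which was highest in wt 1 (601, 496 and 504). Krt19, the usual duct keratin, was at 38.1 ± 3.46 RPKM. Muc1, an apical mucin of the ductal and acinar lumen, had 87.7, 137 and 107 CPM. With Car2, it was 1 of 2 genes of 20 in this list to range more than 1.5-fold, against 1.07% of all genes. The ion transporters of the list spread widely. Slc4a2 (22.6 ± 0.990 RPKM), Slc12a2 (11.6 ± 0.513), Slc26a6 (4.47 ± 0.242) and Slc4a4 (2.33 ± 0.164) were detected, whereas the chloride channel Cftr stood at 0.0893 ± 0.0505 and the anion exchanger Slc26a3 at 0.0125 ± 0.0127. The general epithelial list had 4152, 4540 and 4250 CPM, and of its 23 genes 17 were highest in wt 2, against 32.03% of all genes. None of the 23 ranged over 1.5-fold, near the 1.07% of all genes.

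Stromal genes comprised matrix genes and transcription factors. The collagens Col1a1 and Col3a1 stood at 528 ± 16.4 and 515 ± 9.56 RPKM with overlapping ranges, followed by Sparc (381 ± 12.3) and Vim (346 ± 10.8). None of the 30 matrix genes with 100 or more reads ranged more than 1.5-fold, which is near the 1.07% of all genes. Mesenchymal transcription factors had 1964, 1652 and 1825 CPM in sum. Of the 26 with 100 or more reads, 21 were highest in wt 1 and 20 lowest in wt 2, the opposite order to the acinar genes. Over all genes of that depth, 41.0% were highest in wt 1 and 42.9% lowest in wt 2, or 36.5% and 37.6% with TMM, which left the counts of 21 and 20 as they were. Only Nr2f1 ranged over 1.5-fold (28.2, 18.4 and 21.6 CPM), 1 of 26 against 1.07% of all genes. Hand2, a factor of visceral mesenchyme, had 149, 123 and 137 CPM, and Tcf21 had 40.8, 28.3 and 34.7 CPM. Genes of the splenic anlage, which adjoins the dorsal pancreas, were detected. Tlx1, required for the spleen, had 17.4, 14.4 and 13.4 CPM and Nkx2-5 1.16, 2.19 and 1.12 CPM, so some splenic mesenchyme cannot be told apart from that of the pancreas here.

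Vessels, pericytes, nerves and leukocytes were each visible. The endothelial genes Cdh5, Plvap and Pecam1 stood at 44.5 ± 0.316, 39.6 ± 0.435 and 25.3 ± 1.35 RPKM, and Acta2 and Pdgfrb of mural cells at 31.0 ± 3.29 and 30.9 ± 2.04. Sox10 of neural crest and glia had 6.90 ± 0.474 RPKM. Complement genes of macrophages, C1qa and C1qb, had 31.1 ± 3.53 and 23.7 ± 0.618 RPKM, whereas the pan-leukocyte gene Ptprc had 0.916 ± 0.140. Wt1 of the mesothelium was at 7.89 ± 0.514 RPKM. No gene of these 5 lists with 100 or more reads ranged over 1.5-fold, again near the 1.07% of all genes.

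Blood and liver genes, which can enter with the circulation or with neighbouring tissue, did vary. The embryonic globins Hbb-y (432, 244 and 272 CPM) and Hba-x (79.2, 50.8 and 61.2 CPM) were highest in wt 1, whereas the adult globin Hbb-bs was level (364, 368 and 341 CPM). The erythroid membrane gene Slc4a1 had 18.5, 35.2 and 31.6 CPM, lowest in wt 1. Hbb-bs and the adult alpha globins share over 50% of their words with sister genes, so their levels are too low by an unknown amount. In the liver list, Ambp made up 63.8% of the sum and was level at 339 ± 7.59 RPKM. Albumin, the defining liver transcript, had 4.01, 18.4 and 33.2 CPM and Afp had 56.1, 63.2 and 84.7 CPM, both highest in wt 3. The acinar enzyme sum was highest in wt 2, and both it and albumin were lowest in wt 1. A link between them was not tested.

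The pools also differed in their sex-linked transcripts, a list written after the values were seen. Xist, transcribed from the inactive X chromosome of female cells, had 6.16, 1232 and 395 CPM. The Y-linked genes Ddx3y (86.3, 1.30 and 52.2 CPM), Kdm5d (59.2, 0.892 and 37.2), Eif2s3y (47.6, 1.13 and 30.6) and Uty (22.6, 0.405 and 15.0) ran the other way. Thus wt 1 had Y-linked RNA with almost no Xist, wt 2 had Xist with almost no Y-linked RNA, and wt 3 had both. The labels do not state the sex of the embryos. The order wt 2, wt 3, wt 1 of Xist was also the order of the acinar enzyme sum and of both insulin genes, and the reverse of the mesenchymal factor sum. The embryonic globins Hbb-y and Hba-x had the reverse order too. With 3 pools, the sex makeup and the other differences between pools cannot be told apart, and their part in the order of the acinar and insulin genes was not tested. Kdm6a, an X-linked gene that escapes inactivation, was likewise highest in wt 2 (50.9, 79.2 and 60.1 CPM).

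Transcription factors were taken from 17 families by name. Of 629 in the table, 465 reached 1 CPM in all 3 libraries. The most abundant per length were the cold-shock proteins Ybx1 (226 ± 1.90 RPKM) and Ybx3 (147 ± 6.53), followed by the imprinted zinc finger gene Plagl1 (138 ± 12.4), Neurog3, and the imprinted Peg3 (127 ± 3.66). Below them came the stress factor Atf4 (105 ± 5.17 RPKM), Tcf3, which pairs with tissue-specific basic helix-loop-helix factors (94.9 ± 1.05), Zfp36l1 (94.7 ± 0.950), Sox4, which promotes endocrine differentiation (88.8 ± 5.76), and Xbp1 (88.4 ± 7.77). Zfp36l1 matched by name but acts on RNA. Members of the pancreatic lineage lists among the first 20 included Neurog3, Peg3, Sox4, Xbp1, Rbpjl (50.0, 83.8 and 70.6 in the 3 libraries) and Nkx6-1. Hand2 (61.0 ± 5.90) stood for the mesenchyme. The places were only partly separable, as 4 of 19 neighbouring pairs had ranges that did not overlap. Of 372 factors with 100 or more reads, 7 ranged more than 1.5-fold, against 1.07% of all genes. The Hox family was low, with 19 of 35 genes at 1 CPM, Hoxa5 the highest at 16.6 ± 1.12 RPKM and 209.7 ± 14.6 CPM in sum.

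**Figure D4:**
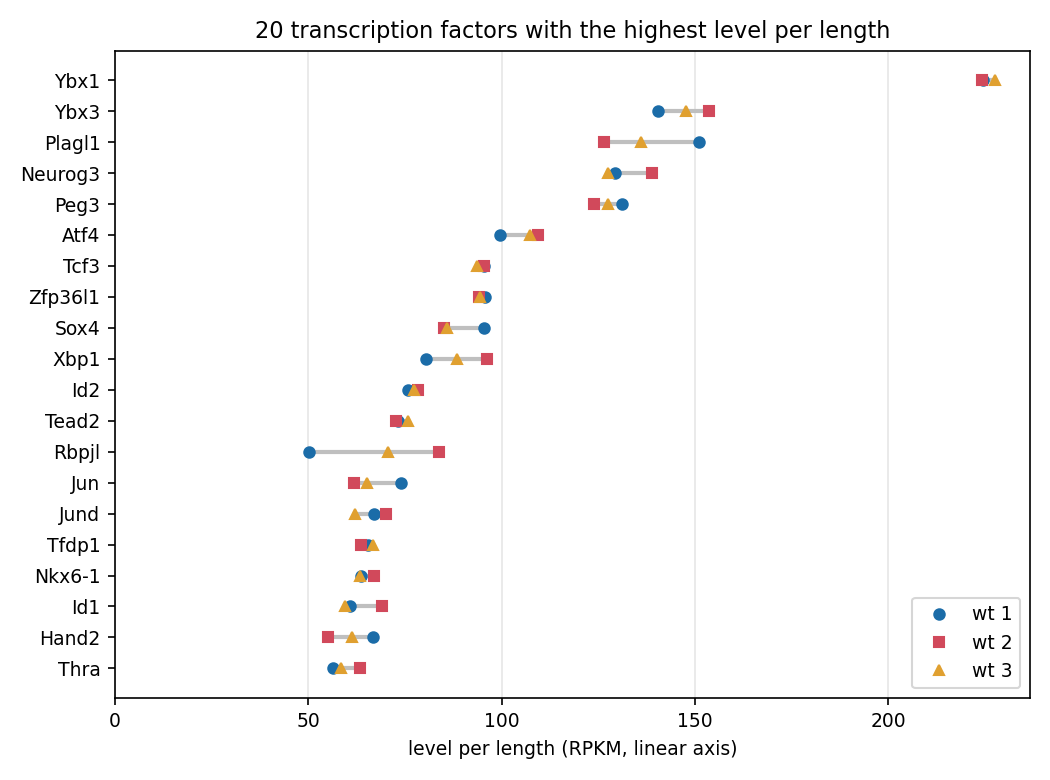
RPKM (linear axis from 0) of the 20 most abundant of 629 transcription factors taken by family name. Circles mark wt 1, squares wt 2 and triangles wt 3, with a grey bar from the lowest to the highest library. Ybx1 leads at 226 RPKM, Neurog3 stands at 132 RPKM, and Rbpjl has the widest bar for its level, from 50.0 to 83.8 RPKM.

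In the plot of transcription factors, the bars of most genes were short next to the gaps across the whole list, although adjacent genes overlapped. Rbpjl was the exception in width, with the order of libraries described for the acinar genes.

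Ligands and receptors were then read side by side. Among insulin-like growth factors, Igf2 (888 ± 26.1 RPKM) far exceeded Igf1 (25.2 ± 2.08). The clearance receptor Igf2r (60.7 ± 1.82 RPKM) exceeded the signalling receptor Igf1r by 3.57 ± 0.151-fold per length, and Insr stood at 7.92 ± 0.185. The binding proteins Igfbp4 (147 ± 10.3 RPKM) and Igfbp5 (137 ± 11.03) were the most abundant modulators. Next to Igf2, the highest ligands of any pathway were Dlk1 (487 ± 11.3 RPKM) and the heparin-binding growth factors Mdk (441 ± 21.7) and Ptn (311 ± 16.6). The receptors of Mdk and Ptn include Alk (0.179 ± 0.0298 RPKM) and Ptprz1 (0.692 ± 0.0958), and levels of their other receptors are not reported here.

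Fibroblast growth factors (FGFs) were scarce beside their receptors. Fgf10, the mesenchymal signal that keeps pancreatic progenitors dividing, had 7.16, 7.05 and 7.35 CPM, or 1.56 ± 0.0330 RPKM. Fgf7, which acts on the same receptor, had 0.0819 ± 0.0298 RPKM. The most abundant members were Fgf11, which is not secreted (6.46 ± 0.132), Fgf18 (3.47 ± 0.383) and Fgf9 (2.00 ± 0.255). Fgf4 and Fgf22 had no read. Fgfr1 (20.2 ± 0.381 RPKM), Fgfr4 (17.6 ± 1.67) and Fgfr2 (14.6 ± 0.934), the last being the receptor of Fgf10 in the epithelium, had ranges that did not overlap.

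In the Notch pathway, which holds progenitors back from endocrine fate, Jag1 (21.2 ± 1.26 RPKM) and Dll1 (10.05 ± 0.423) were the highest canonical ligands. Notch2 (24.3 ± 1.83) exceeded Notch3 (15.9 ± 0.432) and Notch1 (14.2 ± 1.26) without overlap. The target Hes1 had 34.7 ± 1.63 RPKM. Wnt7b (12.5 ± 1.54) and Wnt2b (12.4 ± 0.242) led the Wnt ligands at levels that were not separable, and Fzd2 (44.1 ± 0.513) led the receptors, while Wnt1 had no read. The secreted Wnt antagonist Sfrp1 (61.3 ± 8.22 RPKM) was highest in wt 1 and lowest in wt 2. So were all 6 Wnt modulators with 100 or more reads (5 of them lowest in wt 2 with DESeq2 factors). Over all genes of that depth, 41.0% were highest in wt 1 and 42.9% lowest in wt 2. None of the 6 ranged over 1.5-fold, against 1.07% of all genes.

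Of the hedgehog ligands, whose exclusion from the pancreatic bud is a textbook requirement of its formation, Shh and Ihh were near the floor. Dhh was low but reached 1 CPM in all 3 libraries. Shh had no read in any of the 3 libraries, Ihh stood at 0.0871 ± 0.0395 RPKM and Dhh at 0.847 ± 0.218. The receptor side was present, with the co-receptor Gas1 at 68.5 ± 5.31 RPKM and Smo, which carries the signal into the cell, at 58.2 ± 2.31. The receptor and target Ptch1 had 8.61 ± 0.485 RPKM.

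Among TGF-beta and BMP genes, Bmp1 was highest (61.0 ± 3.23 RPKM), which despite its name is a procollagen protease, followed by Bmp7 (41.0 ± 0.685), and Bmpr1a (26.4 ± 3.00) and Acvr1b (24.2 ± 0.653) led the receptors. In the EGF family Erbb3 (19.4 ± 0.320 RPKM) and Erbb2 (18.3 ± 0.628) exceeded Egfr (1.35 ± 0.124), and Tgfa was the highest ligand at 3.78 ± 0.221. Vegfa, the epithelial attractant of vessels, had 32.2 ± 0.706 RPKM and its receptor Kdr 16.2 ± 0.549. For retinoic acid, the synthesising enzyme Aldh1a2 had 27.9 ± 0.942 RPKM. Nrtn (13.4 ± 1.20) was the highest ligand of the GDNF family and Ret (11.03 ± 1.58) their signalling receptor. Among guidance genes Sema3f (45.9 ± 2.99) and Ephb4 (60.2 ± 0.922) were highest on the 2 sides.

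**Figure D5:**
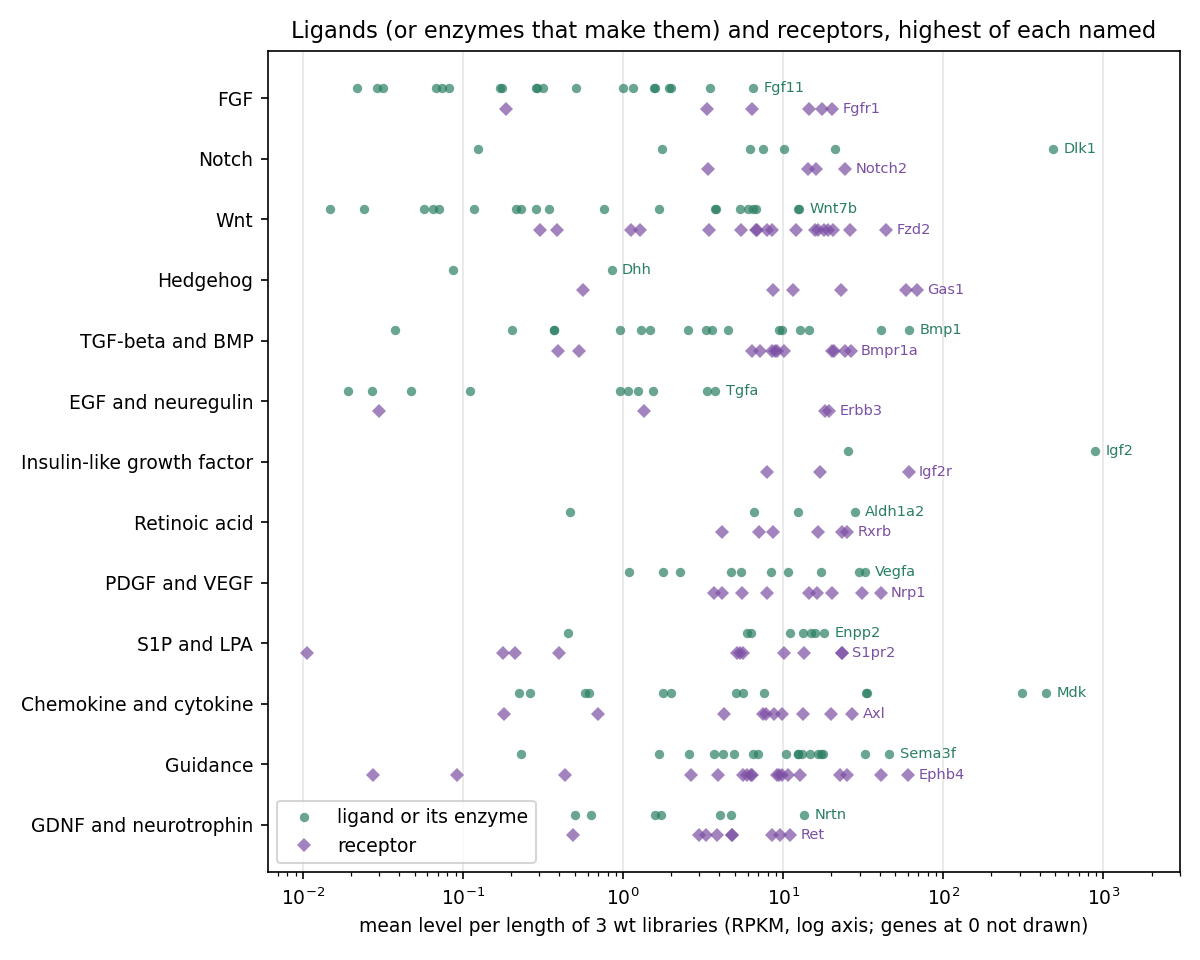
Mean RPKM over the 3 wt libraries (log axis) of each ligand, or enzyme that makes or breaks down a lipid or retinoid ligand (circles), and each receptor (diamonds), by pathway, with the highest of each named and genes at 0 not drawn. Igf2 at 888, Dlk1 at 487, Mdk at 441 and Ptn at 311 RPKM lie to the right of all other ligands, the next being Bmp1 at 61.0, and the hedgehog ligands lie below 1 RPKM while their receptors reach 68.5.

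In the plot of ligands and receptors by pathway, no receptor passed Gas1, whereas the 4 highest ligands each exceeded it. The sphingosine-1-phosphate (S1p) pathway, the subject of the study, had 2 receptors at the same level. S1pr2 (chr9:20965952-20976793) had 66.1, 64.5 and 64.9 CPM, or 23.2 ± 0.293 RPKM. Its CV of 1.26% was below the 3.49% expected from counting error for a gene with that many reads. A CV taken from 3 libraries often falls short of the expected one. S1pr3 had 111, 93.9 and 107 CPM, or 23.1 ± 1.95 RPKM, and the 2 ranges overlapped. S1pr1, typical of endothelium, stood at 5.60 ± 0.265 RPKM, which was 0.242 ± 0.0128 of the S1pr2 level. S1pr4 was at 0.401 ± 0.129 RPKM and S1pr5 had 1 read, in wt 3. The kinases that make S1p, Sphk1 and Sphk2, stood at 11.1 ± 0.494 and 15.9 ± 0.781 RPKM, the lyase Sgpl1 at 14.9 ± 0.886, and the transporter Spns2 at 5.97 ± 0.0815. About 20.8% of the exon length of Sphk2 overlaps Dbp and Rpl18. Of 7 S1p and lysophosphatidic acid receptors with 100 or more reads, 6 were highest in wt 1, against 41.0% of all genes, and none ranged over 1.5-fold, against 1.07%.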

How the data were processed

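Poly(A) RNA of whole pancreata was sequenced from strand-specific libraries. The authors aligned single-end reads to mm10 with GSNAP and Ensembl annotation 69, and deposited raw counts of uniquely aligned reads per gene from featureCounts 1.4.6 (version per the submitters' processing notes). The strand setting of the counting is not given in the sources used here. All columns of the table were mapped to a sample, and 0 were left over. CPM was computed as counts over assigned reads, and RPKM as CPM per kilobase of the deposited length. No levels were compared between groups and no test was run, and the other groups served only to set their own spread beside that of wt. Spread was estimated with edgeR 4.0.16 in R 4.3.3, checked on simulated data, with TMM and DESeq2 1.42.0 factors as alternatives. A gene was called variable if its highest CPM exceeded 1.5 times its lowest, at a mean of 100 reads or more. Symbols came from GENCODE M21 (24750 of 25292), and promoter windows from RefSeq. Words of 50 bases shared between loci marked uncertain genes.

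Named genes were the 15 highest by CPM and by RPKM, the 4 highest of each list with its defining markers, the 20 highest transcription factors, the 3 highest ligands and receptors of each pathway with those at 0 and the S1p receptors, and the 15 most variable genes with the most variable member of each list. Other genes were named after their values were seen. The members and lists were chosen with earlier results of these data known, and the imprinted and sex-linked lists were written after values were seen. Of 797 listed symbols, 11 were not analysed here for want of a row of that name. A few genes that this rule names are not reported here.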

Additional observations from a re-analysis of the deposited data

How the results depend on the processing

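No paired analysis was possible because no levels were compared between groups. Counts of detected genes stayed between 13535 and 15065 under the other normalisations, totals and read minimum and without any 1 library, and rose to 22287 with 1 read in any library as the criterion. The mesenchyme matrix sum moved from 19267 CPM to 19475 with totals free of mitochondrially encoded genes and to 20111 over protein-coding genes only, since both shrink the total. Leaving out each library in turn gave 4.57% to 8.14% for the biological coefficient of variation, highest without wt 3, and 24 to 110 genes with a range over 1.5-fold, where fewer libraries also narrow a range. That count rose to 841 (5.86% of genes) with a minimum of 20 reads and to 3993 (21.5%) with 1 read in each library, which take in genes of larger counting error. The acinar sum lay between 10476 and 13720 CPM with each library left out in turn, and the highest over lowest library between 1.70-fold and 1.73-fold under other totals and factors. Each of 222 named genes stayed within 1 SD of its mean RPKM under TMM, DESeq2 factors and TPM rescaled to the same mean sum. The largest ratio to the main value was 1.013. The factors differ little between libraries, so these means could hardly move. Counts of the highest and lowest library per list under TMM and DESeq2 factors were added after seeing the data.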

Other observations

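Beyond the lists, several genes of 100 or more reads varied between the 3 libraries, and those named here were chosen after their values were seen. The metallothioneins Mt1 (157, 246 and 209 CPM in wt 1, wt 2 and wt 3) and Mt2 (178, 268 and 212 CPM), which bind zinc, were highest in wt 2, as was Cbs, an enzyme of sulphur amino acid metabolism (68.8, 125 and 95.6 CPM). The transcription factors Gfi1 (7.01, 17.8 and 11.7 CPM) and Spdef (9.63, 20.02 and 13.0 CPM) and the adenosine receptor Adora1 (7.63, 26.6 and 15.1 CPM) had the same order of libraries as the acinar genes. The antisense RNA Dnm3os (80.4, 32.2 and 55.2 CPM) and Ltbp1, a matrix protein that holds latent TGF-beta (58.6, 30.8 and 42.6 CPM), had the reverse order.

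The glycolytic gene Eno1 had 113, 203 and 174 CPM and its near-identical copy Eno1b 25.1, 3.40 and 8.79 CPM. The 2 genes ran in opposite order, and Eno1b shares 85.2% of its words with another locus, so the split of reads between them is uncertain. Ribosomal protein genes held 2.31% of the reads and mitochondrially encoded genes 1.06%. No gene of either group with 100 or more reads ranged over 1.5-fold, which is near the 1.07% of all genes.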
